A study of Homo sapiens with 4 samples.

Results

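HepG2 is a line of human hepatocellular carcinoma cells that makes many of the blood proteins of the liver. Time in culture was described here from the 2 HepG2 libraries that received DMSO, the solvent of the study's drug, for 24 h or for 48 h, out of 4 libraries in the series. The other 2 libraries received melatonin at 1 mM for the same times and are used only for comparison. The label gives the genotype as WT, and all 4 cultures shared MEM medium with 10% FBS, sodium pyruvate and nonessential amino acids. Each condition was sequenced once, from polyadenylated RNA, so the variation from culture to culture is unknown and no p-value was computed. How dense the cultures were, and whether the medium was replaced between the harvests, was not given in the sources used here. Of 58302 genes listed, 19841 were protein-coding and at least 200 bp long. The 10539 with an FPKM (a level per length of gene that the authors scaled to a library size) of at least 1 in either DMSO library were compared.

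In background terms, dividing cells express the genes of DNA replication and mitosis in waves, which are switched on through E2F sites and through the cell cycle homology region with CCAAT boxes in the promoters, and these genes are shut off when cells leave the cycle. Tumour cell lines usually grow on glucose through glycolysis, a pathway that the hypoxia-inducible factor HIF raises. When amino acids run short or the endoplasmic reticulum is loaded with unfolded protein, the transcription factor ATF4 and the unfolded protein response raise genes for amino acid supply and for chaperones. Sterol synthesis genes are governed by SREBP2, which senses cholesterol in the endoplasmic reticulum.

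Whole reads could be recovered from the FPKM, and 21616676 reads lay on genes in the 24 h DMSO library and 23086025 in the 48 h one. The library size that the FPKM imply was 1.19 times larger at 48 h. The share of reads on the mitochondrial genome was 19.96% at 24 h and 9.77% at 48 h with DMSO, and 16.6% and 11.9% with melatonin. All 15 hepatocyte markers examined had an FPKM of at least 1 in each library, with ALB (albumin) at 3109 and 2760 in the DMSO pair and AFP (alpha-fetoprotein, a fetal liver protein) at 1131 and 1902. Of 7 leukocyte markers, LYZ stood at 729 and 736 FPKM in the DMSO pair, CD14 at 1.10 and 0.870, and PTPRC, which defines leukocytes, at 0 and 0.00545. Summed over 5 endothelial markers the level was 0.653 and 0.939 FPKM, and over 3 lung markers 0 and 0.0365. Of 5 cholangiocyte markers KRT19, SOX9 and EPCAM were above 1 FPKM in each library, with KRT19 at 62.1 and 34.5 in the DMSO pair, and the 5 summed to 191 and 178. The collagen markers of fibroblasts were at or near 0, and of that list PDGFRB was at 1.81 and 3.58 FPKM in the DMSO pair and at 0.774 and 4.33 in the melatonin pair. The part of these markers in any result was not tested.

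A 2-fold difference on the scale log2((48 h FPKM + 1)/(24 h FPKM + 1)) was found for 467 of the 10539 genes, which is 4.43% of them. The level was higher at 48 h for 174 genes (1.65%) and lower for 293 (2.78%), and these percentages are the background for every list below. The median log2 fold change of all genes was -0.01, with 90% of the genes between -0.83 and 0.69. The implied library size, 1.19 times larger at 48 h, was close to the 1.20 times at which the typical gene is level (the median of ratios). A median near 0 thus follows from the scaling. For each of the 467 genes the 95% interval of the ratio from counting error alone lay on 1 side of equal levels. Rescaled to TPM (each library forced to the same FPKM sum), the median moved to 0.45 and 92.0% of called genes were higher, in place of 37.3%, and with library size as the plain sum of reads the median was 0.12 and that share was 59.6%. Directions below are therefore relative to the typical gene.

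**Figure D1:**
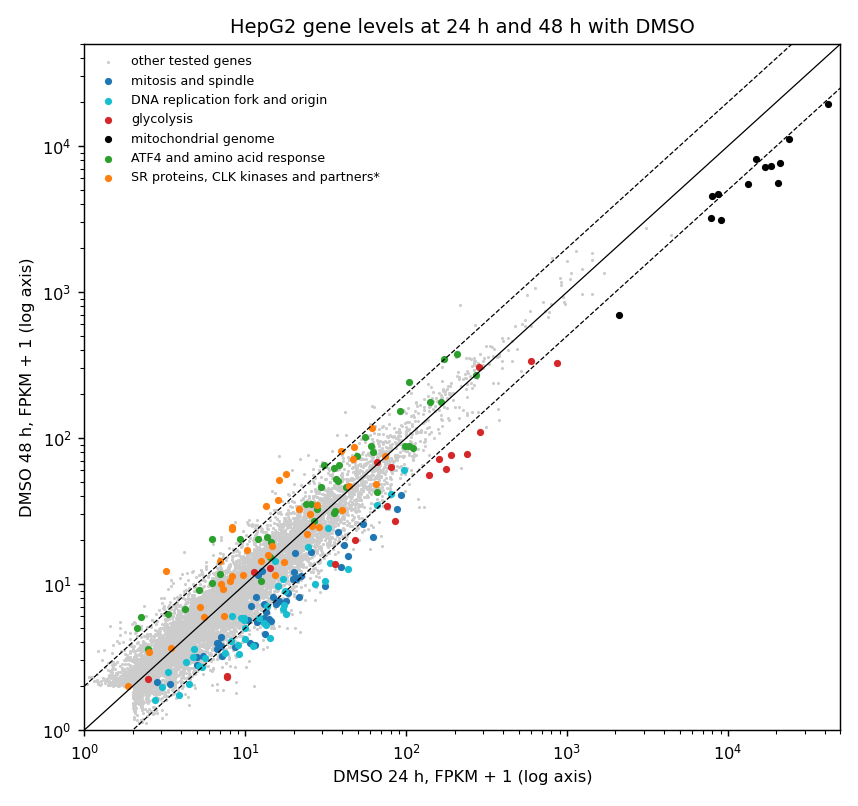
FPKM + 1 of each tested gene in the DMSO library of 24 h (x axis) against that of 48 h (y axis), both on log axes, with members of 6 gene lists in colour; the solid line marks equal levels and the dashed lines a 2-fold difference. The list with an asterisk was written after the values were seen. Mitosis, DNA replication, glycolysis and mitochondrial genes lie mostly below the line of equal levels, ATF4 genes mostly above it.

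Among genes with at least 50 reads in a DMSO library, the deepest falls were in enzymes that set the pace of glycolysis. PFKFB4 (chr3:48517684-48562015, hg38), which makes and breaks down an activator of glycolysis, had 10.3 FPKM at 24 h and 1.01 at 48 h, 10.2-fold lower (95% counting interval 8.54 to 12.3). Its paralogue PFKFB3 went from 7.80 to 0.798 FPKM, 9.77-fold lower (7.98 to 12.1). In the melatonin pair both were also lower at 48 h, from 3.80 to 1.35 for PFKFB4 and from 2.52 to 1.51 for PFKFB3, but they started from a lower level than with DMSO at 24 h. BHLHE40, a transcriptional repressor of the clock and the hypoxia response, went from 20.8 to 3.71 FPKM with DMSO and from 11.7 to 3.69 with melatonin. EPO, the hormone erythropoietin, went from 6.31 to 0.891 FPKM on 154 and 26 reads. GSTA1, a glutathione transferase, went from 7.75 to 1.12 FPKM with DMSO and from 8.90 to 1.41 with melatonin, nearly the same step in both pairs. These levels rest on 145 and 25 reads with DMSO and on 184 and 32 with melatonin. The 12 lowest log2 fold changes also took in TMEM141 (-2.03), APOL1 (-1.96), a secreted apolipoprotein, TUBA1B (-1.95), an alpha-tubulin, MIXL1 (-1.91), a homeobox factor, MT-CO3 (-1.88), a subunit of cytochrome c oxidase encoded in mitochondria, ASF1B (-1.87), a histone chaperone used in S phase, and SLC25A10 (-1.87), a carrier of dicarboxylates into mitochondria.

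At the other end stood FST, follistatin, a secreted protein that binds activin (chr5:53480409-53487134). FST had 15.2 FPKM at 24 h and 74.0 at 48 h with DMSO, 4.88-fold higher (4.53 to 5.26), and 48.0 and 126 FPKM with melatonin. IGFBP1, a liver protein that binds insulin-like growth factors and is raised when insulin signalling is low, had 216 and 811 FPKM with DMSO and 450 and 1557 with melatonin. Both genes were thus higher at 48 h in each pair, and at each time higher with melatonin. TRIM50, a ubiquitin ligase, went from 3.15 to 15.6 FPKM, and CEACAM1, an adhesion molecule, from 20.8 to 70.9. S100P, a calcium-binding protein, went from 40.6 to 151 FPKM with DMSO, and from 91.8 to 117 with melatonin. PLSCR4, a phospholipid scramblase, went from 0.657 to 4.51 FPKM on 51 and 418 reads, and STOM, a membrane protein of lipid rafts, from 23.5 to 76.1. Of the 12 highest, SERF1B (0.446 and 4.18 FPKM with DMSO) was the only gene to go the other way with melatonin (2.75 and 1.23), and since it has a near-identical copy, SERF1A, its reads are uncertain. RSRP1, CCNL2, SRSF5 and DDIT3 complete the set and are described with their groups.

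**Figure D2:**
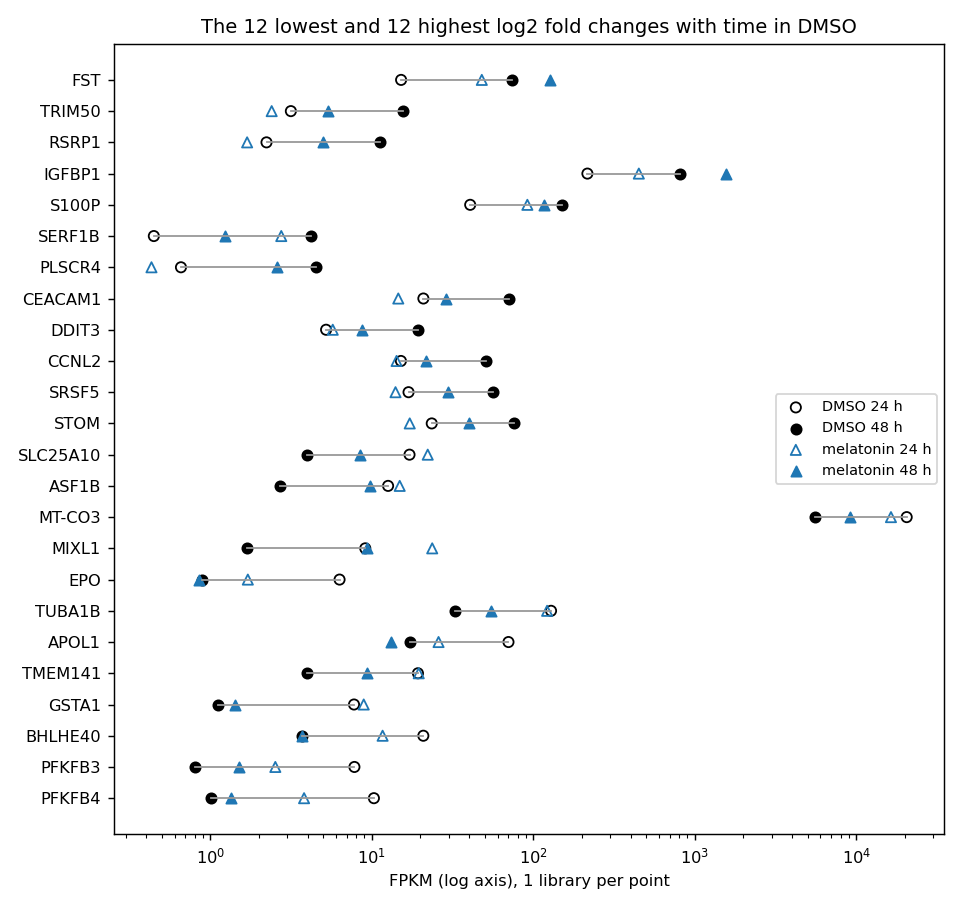
FPKM on a log axis of the 12 genes with the lowest and the 12 with the highest log2 fold change with time in DMSO, in the 4 libraries (circles DMSO, triangles melatonin, open 24 h, filled 48 h; 1 library per point, grey line from 24 h to 48 h in DMSO). Each filled circle lies apart from its open circle by 3.24-fold or more, and the melatonin triangles moved the same way in all but SERF1B.

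Genes of the cell cycle were lower at 48 h as a block, and in bulk RNA fewer dividing cells and less RNA per cell cannot be told apart. All 49 mitosis and spindle genes examined were tested and all 49 were below 0, with 24 past 2-fold and a median log2 fold change of -0.96. MKI67, the proliferation marker Ki-67, had 30.6 FPKM at 24 h and 8.68 at 48 h with DMSO, 3.52-fold lower (3.36 to 3.69), and 29.3 and 15.2 with melatonin. CCNB1, cyclin B1, which drives entry into mitosis, had 61.3 and 20.1 FPKM with DMSO and 45.6 and 24.98 with melatonin. CCNA2, cyclin A2, had 38.2 and 12.1 FPKM with DMSO, and TPX2, a spindle assembly factor, 86.5 and 31.8. For MKI67 and CCNB1 the 24 h libraries were the higher ones in both pairs and the 48 h DMSO library the lowest of the 4. That library was the lowest of the 4 for 42 of the 49 mitosis genes, against 34.1% of all tested genes. Near 0 stood BUB3 (-0.05), a checkpoint protein with a second role outside mitosis, and ECT2 (-0.06), a factor of cytokinesis.

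The replication machinery gave the same picture. All 43 genes of origins and forks were below 0 (median -0.97), 19 of them past 2-fold, and the 48 h DMSO library was the lowest of the 4 for 43 of the 43. MCM2, a subunit of the replicative helicase, had 42.4 and 11.8 FPKM with DMSO and 31.2 and 20.4 with melatonin. GINS2, which couples that helicase to the polymerase, had 13.3 and 3.24 FPKM with DMSO and 12.6 and 8.58 with melatonin. For both genes the step was larger with DMSO, from 24 h levels above those with melatonin, and the library of 48 h with DMSO was the lowest. The helicase subunits MCM4 (-1.57), MCM5 (-1.51) and MCM6 (-1.56) went down together, whereas CDT1 (-0.42) and GMNN (-0.45), the licensing factor and its inhibitor geminin, and RFC1 (-0.10), of the clamp loader, stayed within 2-fold. PCNA, the sliding clamp, had 96.3 and 59.8 FPKM with DMSO and 93.8 and 97.5 with melatonin, so that the library of 48 h with DMSO stood apart from the other 3.

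Enzymes that supply deoxynucleotides were lower in 11 of 11 cases (median -1.07), with 6 past 2-fold. TK1, thymidine kinase, had 58.3 and 16.5 FPKM with DMSO and 54.5 and 37.4 with melatonin. The list also holds RRM2 (-1.47) and RRM1 (-1.36) of ribonucleotide reductase, while UMPS (-0.04), which makes uridine for RNA as well, was level. Of 22 tested genes of homologous recombination and the Fanconi pathway 21 were below 0 (median -0.91), with 3 past 2-fold, led by BRCA1 (-1.42) and FANCD2 (-1.33), with FANCL (0.46) as the exception.

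Upstream regulators were mixed. Of 34 tested genes of G1 and S phase control, 5 were lower past 2-fold and 1 higher (median -0.33). MYBL2, the MYB protein that activates mitotic genes, had 68.7 and 20.3 FPKM with DMSO and 71.2 and 36.8 with melatonin, and FOXM1, its partner in G2, had 19.2 and 7.58 with DMSO. CDKN1A, the inhibitor p21, had 25.3 and 60.3 FPKM with DMSO and 16.2 and 26.6 with melatonin, and was the member that passed 2-fold upwards. Another inhibitor of cyclin-dependent kinases, CDKN2C, was lower, with 6.93 and 2.08 FPKM with DMSO and 8.08 and 4.72 with melatonin. E2F1 had 31.5 and 17.2 FPKM with DMSO but 50.2 and 70.0 with melatonin, a step in opposite directions. Replication-dependent histones, whose transcripts mostly lack the poly(A) tail used for capture, could be tested for 9 of 26 genes (median 0.17), with 3 higher past 2-fold and none lower, and they share sequence with one another, which makes them uncertain. Relative to all genes their median was 0.19, and it was 1.01 among those with at least 50 reads and 0.91 among those with an FPKM of at least 5.

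Promoters of these lists were read from RefSeq, as 250 bases before to 50 after the gene start, to show what the members that fell together have in common. The letters searched on both strands were TTTGAA or TTCGAA for the cell cycle homology region, CCAAT for the CCAAT box and TTTGGCGC, TTTCCCGC, TTTGGCGG or TTTCCCGG for E2F, and no search excluded overlap. In the promoters of the largest fallers with matches, MKI67 and HMMR (a spindle protein) for mitosis, the capitals mark CCAAT boxes and cell cycle homology regions, on either strand and in part overlapping, and in GINS2 and MCM6 for replication they mark E2F letters.
MKI67, chr10:128126374-128126673, minus strand: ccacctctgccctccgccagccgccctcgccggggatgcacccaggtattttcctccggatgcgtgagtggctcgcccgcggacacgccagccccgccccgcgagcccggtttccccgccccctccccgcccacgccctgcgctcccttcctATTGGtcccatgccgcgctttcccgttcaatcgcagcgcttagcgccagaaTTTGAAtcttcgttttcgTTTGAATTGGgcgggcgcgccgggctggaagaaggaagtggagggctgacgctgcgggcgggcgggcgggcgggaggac
HMMR, chr5:163460382-163460681, plus strand: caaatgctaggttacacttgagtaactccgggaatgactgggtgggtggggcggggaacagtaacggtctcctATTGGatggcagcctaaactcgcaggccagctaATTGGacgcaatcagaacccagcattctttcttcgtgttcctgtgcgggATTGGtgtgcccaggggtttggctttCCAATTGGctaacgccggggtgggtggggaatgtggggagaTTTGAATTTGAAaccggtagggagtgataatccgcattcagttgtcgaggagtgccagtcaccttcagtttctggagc
GINS2, chr16:85688905-85689204, minus strand: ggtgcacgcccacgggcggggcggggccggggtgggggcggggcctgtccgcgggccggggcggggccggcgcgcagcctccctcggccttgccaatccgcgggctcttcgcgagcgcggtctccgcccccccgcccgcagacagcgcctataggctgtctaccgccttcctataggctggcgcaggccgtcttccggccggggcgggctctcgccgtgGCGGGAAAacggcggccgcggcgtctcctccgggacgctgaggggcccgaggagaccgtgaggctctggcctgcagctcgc
MCM6, chr2:135876394-135876693, minus strand: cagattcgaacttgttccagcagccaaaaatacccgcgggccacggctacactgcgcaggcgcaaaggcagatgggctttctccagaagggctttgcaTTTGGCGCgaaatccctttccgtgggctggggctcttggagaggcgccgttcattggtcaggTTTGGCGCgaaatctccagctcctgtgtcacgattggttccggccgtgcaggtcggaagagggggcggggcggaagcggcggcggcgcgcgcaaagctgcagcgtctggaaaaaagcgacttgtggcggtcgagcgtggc
In MKI67 the homology region letters begin at -47 and -29 from the start, with a CCAAT box on the opposite strand at -98 and at -24, and in MCM6 the E2F letters lie at -152 and -90. Of 43 mitosis promoters found in the table, 27 (62.8%) held both a CCAAT box and the homology region, against 4.78% of 8628 promoters of tested genes and 6.57% of all 27195. E2F letters were in 20 of 36 replication promoters (55.6%), against 5 of 43 mitosis promoters (11.6%) and 7.34% of tested genes. Over all tested genes, the 412 with both a CCAAT box and the homology region had a median log2 fold change of -0.16, and 37 of them (8.98%) were lower past 2-fold, against 2.15% of the 8216 without, and 27 of the 412 and 14 of the 37 are from the mitosis list. Such matches describe letters in a window, not binding, and within the mitosis list the median was -1.07 with both motifs (27 genes) and -0.93 without (16 genes). Within the replication list the median was -0.98 with E2F letters, where 9 of 20 genes were lower past 2-fold, and -0.95 without, where 6 of 16 were.

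**Figure D3:**
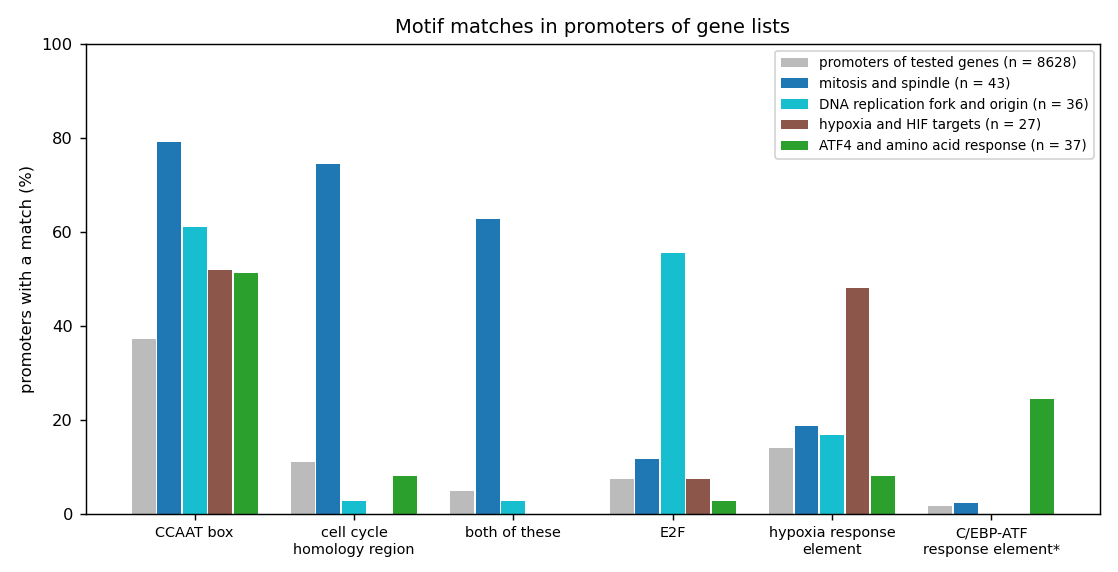
Share of promoters (y axis, percent, 300 bases each) that hold each motif (x axis) on either strand, for all tested genes and for 4 gene lists, with the number of promoters in brackets. CCAAT with the cell cycle homology region was found in 62.8% of mitosis promoters and E2F letters in 55.6% of replication promoters, against 4.78% and 7.34% of tested genes; the motif with an asterisk was added after the values were seen.

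Glycolysis had a median of -1.29, level with that of the mitochondrial genome below, with 17 of 20 tested members below 0 and 13 lower past 2-fold. The enzymes were lower at most steps of the pathway, from GPI (-1.28) and PFKL (-1.38) through ALDOA (-1.38), TPI1 (-1.31), PGK1 (-1.17) and PGAM1 (-1.53) to ENO1 (-1.40), PKM (-1.30) and LDHA (-1.61). LDHA, lactate dehydrogenase A, had 237 FPKM at 24 h and 76.9 at 48 h with DMSO and 119 and 64.5 with melatonin. ENO1, enolase, had 868 and 327 FPKM with DMSO and 529 and 296 with melatonin. In both genes the DMSO library of 24 h was above the other 3, as it was for 17 of the 20 members, against 21.5% of all tested genes. GAPDH (-0.82) and HK2 (-0.35), the hexokinase of tumour cells, stayed within 2-fold. Among transporters, SLC2A3 (GLUT3) had 83.8 and 25.9 FPKM with DMSO, whereas SLC2A1 (GLUT1) had 284 and 305, and the lactate exporter SLC16A3 (-1.16) differed from its relative SLC16A1 (0.06) in the same way.

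The hypoxia list overlaps glycolysis in 4 tested genes and was less uniform. Of 32 members tested, 10 were lower past 2-fold and none higher, with 22 below 0 and a median of -0.53. Below 0 stood BNIP3 (-1.51), a mitophagy receptor, and PDK1 (-1.30), which holds pyruvate back from mitochondria, next to PFKFB3, PFKFB4 and EPO. Above 0 stood VEGFA (0.84), the angiogenic factor, at 13.3 and 24.5 FPKM with DMSO and 13.9 and 12.4 with melatonin, and CA9 (0.03), a carbonic anhydrase, was level. The letters GACGTG or TACGTG of the hypoxia response element, on either strand, were in 13 of 27 promoters of the list (48.1%), against 14.05% of tested genes. The promoters of BHLHE40 and LDHA, the largest fallers with a match, show them in capitals.
BHLHE40, chr3:4979187-4979486, plus strand: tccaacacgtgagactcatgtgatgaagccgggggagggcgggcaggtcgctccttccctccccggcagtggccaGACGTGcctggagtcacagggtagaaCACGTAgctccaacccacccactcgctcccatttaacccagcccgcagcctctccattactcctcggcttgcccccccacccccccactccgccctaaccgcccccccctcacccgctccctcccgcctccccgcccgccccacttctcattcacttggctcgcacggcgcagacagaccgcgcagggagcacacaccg
LDHA, chr11:18394313-18394612, plus strand: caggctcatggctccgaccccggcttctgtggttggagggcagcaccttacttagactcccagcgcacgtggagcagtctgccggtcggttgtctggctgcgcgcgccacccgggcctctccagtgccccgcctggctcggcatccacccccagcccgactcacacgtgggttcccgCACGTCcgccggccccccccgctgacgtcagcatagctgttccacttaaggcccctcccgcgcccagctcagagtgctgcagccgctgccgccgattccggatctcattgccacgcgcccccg
In BHLHE40 the matches begin at -175 and -149, and in LDHA at -73. Other letters with the core ACGTG, such as CACGTG, were not searched and stand unmarked in both sequences. A promoter without a match can thus still hold that core. These are the members with a match that were lower past 2-fold, 2 of 13, against 6 of the 14 promoters of the list without a match, and the medians were -0.52 and -0.40.

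Cholesterol synthesis was lower almost throughout. Of 28 tested genes of the pathway and of SREBP2, 27 were below 0 and 13 past 2-fold, with a median of -0.90. TM7SF2, a sterol reductase, had 22.4 and 6.77 FPKM with DMSO and 38.4 and 16.2 with melatonin, and ACAT2, which starts the pathway from acetyl-CoA, had 26.4 and 8.54 with DMSO. In these genes each pair was lower at 48 h, and the 48 h DMSO library was the lowest of the 4 for 24 of 28 members. FDPS (-1.44), which makes farnesyl diphosphate, was among the 4 largest, while SCAP (-0.09) and SREBF2 (-0.51), the sensor and the transcription factor, stayed within 2-fold. The exception above 0 was NPC1 (0.64), the exporter of cholesterol from lysosomes. The letters TCACNCCAC or TCACNCCAT of the sterol response element, on either strand, were in 2 of 21 promoters of the list (9.52%), against 1.51% of tested genes. They were also in 2 of 18 glycolysis promoters (11.1%), so the share is not particular to the sterol list. In fatty acid synthesis 5 of 26 genes were lower past 2-fold and none higher (median -0.43), with the desaturases FADS2 (-1.84), SCD (-1.23) and FADS1 (-1.04) among them, and LPIN1 (0.90) and the glucose sensor MLXIPL (0.81) at the upper end.

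The 13 protein genes of the mitochondrial genome were all below 0, and 10 were lower past 2-fold (median -1.28). MT-CO3 had 20523 FPKM at 24 h and 5561 at 48 h with DMSO, and 16402 and 9114 with melatonin, while MT-ND1, of complex I, had 7961 and 4540 with DMSO. The DMSO library of 24 h was the highest of the 4 for all 13. The 74 tested nuclear genes of the same respiratory complexes had a median of -0.19, with none past 2-fold in either direction. The share of all reads on the mitochondrial genome, given above, moved with this list. Counts with the mitochondrial genes left out are given below, and beyond these the part of that share in the other results was not tested.

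Genes of the amino acid response had a median of 0.57, with 34 of 43 tested members above 0, 7 higher past 2-fold and none lower. ATF4, the transcription factor that heads the response, had 104 FPKM at 24 h and 240 at 48 h with DMSO, 2.32-fold higher (2.24 to 2.39), and 167 and 179 with melatonin. DDIT3 (CHOP), a partner that promotes cell death under lasting stress, had 5.21 and 19.3 FPKM with DMSO and 5.72 and 8.64 with melatonin. ASNS, asparagine synthetase, had 1.12 and 4.002 FPKM with DMSO and 1.605 and 1.78 with melatonin. For all 3 genes the DMSO library of 48 h was above the other 3, as it was for 28 of the 43 members, against 32.7% of tested genes. The rest of those past 2-fold were NUPR1 (1.41), SLC6A9 (1.13), a glycine transporter, MTHFD2 (1.07), of folate metabolism in mitochondria, and GDF15 (1.01), a secreted stress hormone. Several tRNA synthetases were higher within 2-fold, such as SARS (0.82) and CARS (0.82), while AARS (-0.23), EPRS (-0.22), IARS (-0.18) and WARS (-0.25) were below 0, and DDIT4 (-0.63), an inhibitor of mTORC1, was lowest. The letters TGATGNAA of the C/EBP-ATF response element, a search added after the values were seen, were in 9 of 37 promoters of the list (24.3%), against 1.61% of tested genes, and are in capitals in the promoters of ASNS and ATF3.
ASNS, chr7:97872359-97872658, minus strand: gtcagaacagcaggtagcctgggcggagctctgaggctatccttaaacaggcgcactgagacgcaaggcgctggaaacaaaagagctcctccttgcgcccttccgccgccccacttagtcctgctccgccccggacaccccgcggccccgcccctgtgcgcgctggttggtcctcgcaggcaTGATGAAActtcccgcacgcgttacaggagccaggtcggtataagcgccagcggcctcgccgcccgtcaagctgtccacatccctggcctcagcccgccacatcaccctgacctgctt
ATF3, chr1:212565157-212565456, plus strand: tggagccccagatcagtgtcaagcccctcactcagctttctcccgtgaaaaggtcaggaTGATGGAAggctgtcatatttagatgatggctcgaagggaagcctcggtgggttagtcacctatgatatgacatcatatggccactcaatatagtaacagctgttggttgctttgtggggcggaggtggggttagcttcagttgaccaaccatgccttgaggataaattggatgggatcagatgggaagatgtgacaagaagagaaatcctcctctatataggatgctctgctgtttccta
In ASNS the match begins at -68, and in ATF3 at -191. ATF3 itself stayed within 2-fold, with a log2 fold change of 0.91 with DMSO and -0.05 with melatonin. Within the list the median was 0.64 with a match, where 1 of 9 genes was higher past 2-fold, and 0.62 without, where 5 of 28 were.

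Chaperones of the endoplasmic reticulum followed. Of 32 tested genes 27 were above 0, 3 of them past 2-fold, with a median of 0.30. HERPUD1, of the degradation pathway for misfolded proteins, had 26.7 and 69.5 FPKM with DMSO and 24.0 and 25.3 with melatonin. HSP90B1 (GRP94) had 268 and 596 FPKM with DMSO and 215 and 249.1 with melatonin, and HSPA5 (BiP) 560 and 957 with DMSO and 478 and 503 with melatonin. In all 3 genes the DMSO library of 48 h stood alone above 3 similar libraries, and it was the highest of the 4 for 27 of 32 members. By contrast the 20 tested heat shock proteins of the cytosol and mitochondria had a median of -0.05 with none past 2-fold, HSP90AA1 (-0.89) being the lowest.

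RNA processing genes came up in the ranking itself, so a list of 39 SR proteins, CLK kinases and their partners was written after the values were seen and is given as a description. Of the 39, 31 were above 0 and 9 higher past 2-fold, with none lower, and the median was 0.35. RSRP1 had 2.23 and 11.2 FPKM with DMSO and 1.69 and 4.96 with melatonin. SRSF5, an SR protein that binds splicing enhancers, had 16.9 and 56.0 FPKM with DMSO and 14.01 and 29.7 with melatonin, and CLK1, a kinase of SR proteins, had 7.26 and 22.8 with DMSO and 5.45 and 12.1 with melatonin. CCNL2, a cyclin of nuclear speckles, had 15.1 and 50.8 FPKM with DMSO, and NXF1, the main exporter of mRNA, 7.27 and 23.7. The FPKM is a sum over all transcripts of a gene, and several of these genes have transcripts with retained introns or poison exons, so the coding share is not known. Below 0 in the same list were SRSF1 (-0.42), TRA2B (-0.42) and SRSF3 (-0.32).

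Genes linked to p53, to FOXO factors and to growth arrest tended upwards. Of 28 p53 targets 5 were higher past 2-fold and 1 lower (median 0.22), the former being BBC3 (1.51), the death factor PUMA, TP53INP1 (1.32), CDKN1A (1.22), GADD45A (1.17) and GDF15 (1.01), while MDM2 (-0.15) was level and FDXR (-1.02) was lower. BBC3 had 6.05 and 19.1 FPKM with DMSO and 6.76 and 8.44 with melatonin. Of 25 FOXO-linked and growth-arrest genes 5 were higher past 2-fold and 1 lower (median 0.39), with YPEL3 (1.501) and the repressor BCL6 (1.39) beside IGFBP1. In the BCL2 family (22 tested, median 0.09) BMF (1.51), another death factor, joined BBC3, and BIRC5 (-1.48), survivin, which also acts in mitosis, was lower. Of 41 lysosome and autophagy genes, 31 were above 0, 4 were higher past 2-fold and 1 was lower (median 0.30). ULK1, the kinase that starts autophagy, had 6.25 and 15.1 FPKM with DMSO and 6.89 and 7.55 with melatonin, and MAP1LC3B, the LC3 protein of autophagosomes, 8.37 and 18.96 with DMSO and 13.9 and 15.6 with melatonin. LAMP2 (1.01) and GABARAPL1 (1.09) were the others, against BNIP3 and the hydrolases GAA (-0.91) and LIPA (-0.78).

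**Figure D4:**
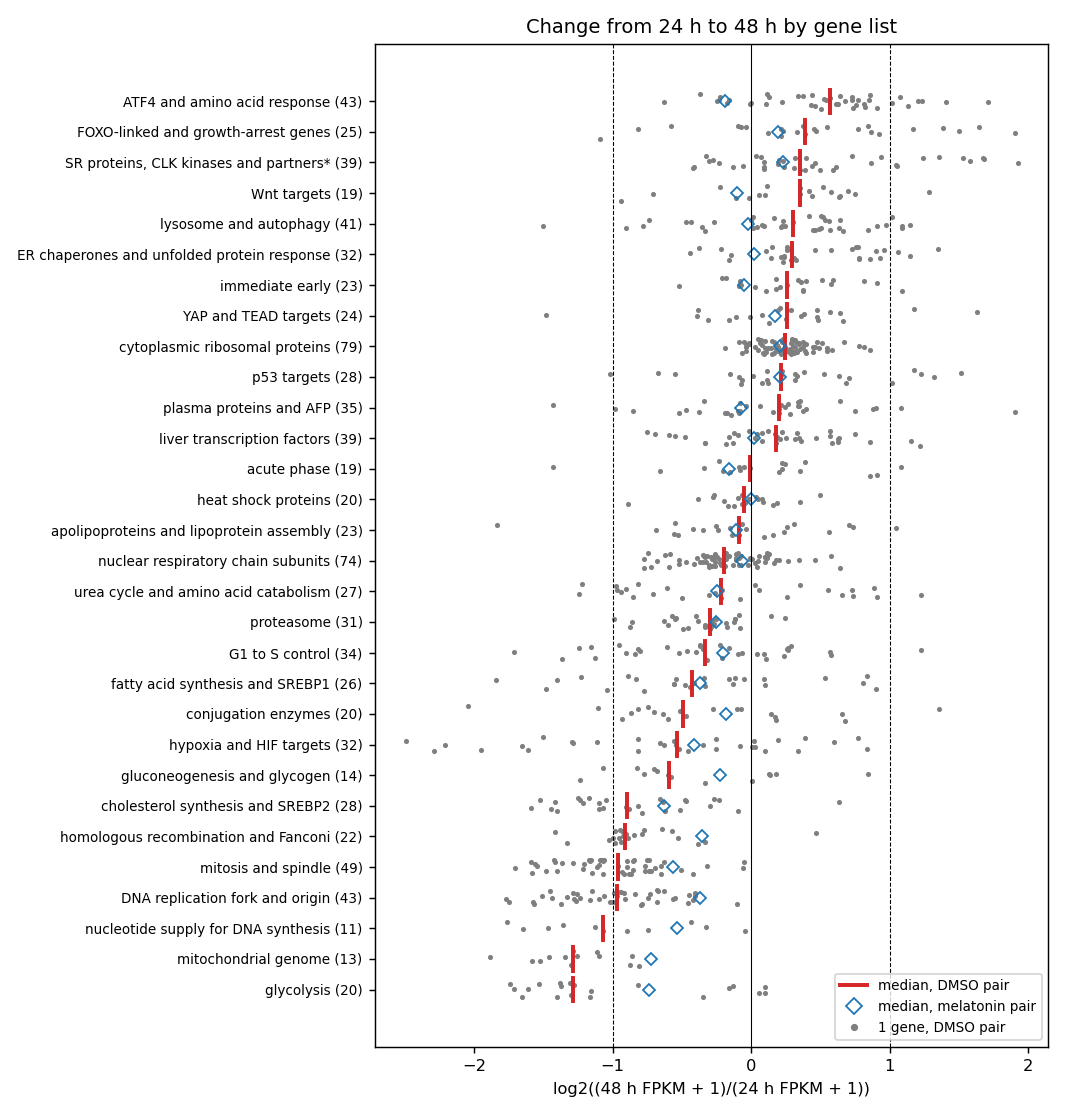
Log2 fold change from 24 h to 48 h (x axis) of each tested member (grey points, DMSO pair) in 30 gene lists, with the number of members in brackets, the median of the DMSO pair (red bar) and of the melatonin pair (open diamond); dashed lines mark 2-fold and an asterisk the list written after the values were seen. Medians run from -1.29 for glycolysis to 0.57 for the ATF4 list, and the diamonds lie nearer 0 than the bars for the cell cycle, glycolysis and mitochondrial lists. The spread over all tested genes was also narrower in the melatonin pair.

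Liver functions showed no common direction. The 35 tested plasma protein genes had a median of 0.20, with 2 higher past 2-fold and 1 lower, and the 23 genes of lipoproteins one of -0.09. GPC3, a proteoglycan of fetal liver and liver cancer, had 809 and 1709 FPKM with DMSO and 988 and 1435 with melatonin. AFP was higher at 48 h with DMSO (0.75) but not with melatonin (-0.33), and ALB was nearly level (-0.17). Lower at 48 h in both pairs were HP, haptoglobin, at 34.7 and 12.2 FPKM with DMSO and 21.2 and 5.15 with melatonin, and APOC3, of triglyceride-rich lipoproteins, at 119 and 32.8 with DMSO and 86.6 and 23.7 with melatonin. The coagulation list of 25 genes had a median of -0.01, and CD55 (1.01) and SERPINA3 (1.08) were the members past 2-fold upwards in the complement list (24 genes, 0.10) and the acute phase list (19 genes, -0.01). Among 39 liver transcription factors (median 0.18) HNF4A (-0.75), a master factor of hepatocytes, had the lowest value, and NR2F1 (1.22) and KLF15 (1.15) the highest.

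Metabolic lists of the liver differed in their medians. They were -0.59 for 14 genes of gluconeogenesis and glycogen, -0.49 for 20 conjugation enzymes, -0.22 for 27 genes of the urea cycle and amino acid catabolism, -0.19 for 28 of fatty acid oxidation, 0.00 for 21 cytochrome P450 and AHR genes and 0.05 for 19 genes of bile acids, and each held at most 2 genes past 2-fold in a direction. Past 2-fold were UGT2B4 (1.35), a glucuronosyltransferase, ARG2 (1.22), CYP1A1 (1.21), PPARGC1A (1.14), the coactivator of mitochondrial biogenesis, and SLC51B (1.10) upwards, and GSTA1, FAH (-1.24), SLC37A4 (-1.24), MAT1A (-1.22), MGST1 (-1.11), EHHADH (-1.10), GBE1 (-1.07) and CYP4F2 (-1.06) downwards. The NRF2 list (35 genes, -0.19), metallothioneins and zinc transport (10 genes, -0.06) and iron handling (20 genes, -0.08) held 3 lower genes between them, AKR1B10 (-1.01), MT1G (-1.15) and SLC39A4 (-1.01).

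Large housekeeping sets stayed within 2-fold. Of 79 cytoplasmic ribosomal protein genes 70 were above 0 with DMSO and 73 with melatonin (medians 0.24 and 0.21), and none passed 2-fold. RPL5 had 203 and 358 FPKM with DMSO and 192 and 316 with melatonin, the step being alike in both pairs. Of 41 factors of ribosome biogenesis 13 were above 0 and 28 below (median -0.11), and 29 of 31 proteasome genes were below 0 (median -0.30). The counting intervals of single genes do not bear on whether such small steps exceed the difference between cultures.

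Signalling, matrix and cell shape genes gave medians between -0.17 and 0.35. They were 0.15 for 31 interferon and antigen presentation genes, 0.17 for 20 of NF-kappaB, 0.26 for 24 YAP targets and for 23 immediate early genes, 0.35 for 19 Wnt targets, 0.22 for 16 clock genes, -0.07 for 14 genes of the IGF system, -0.11 for 32 of collagen, laminin and matrix and -0.17 for 42 of integrins, junctions and cytoskeleton. LGR5, a Wnt target and receptor, had 22.2 and 55.5 FPKM with DMSO and 18.5 and 25.1 with melatonin. IFITM3 (1.51), an antiviral membrane protein, was the highest of the interferon list, NT5E (1.63) of the YAP list, TPM2 (1.43) of the cytoskeleton and CRY1 (1.10) of the clock. The lowest were PSMB9 (-0.86) for interferon, BIRC5 (-1.48) for YAP and BHLHE40 (-2.21) for the clock, which was the largest change of that list. IGF2, the fetal growth factor, had 312 and 119 FPKM with DMSO and 213 and 93.3 with melatonin. The lowest cytoskeletal genes were tubulins, which build the spindle, with TUBA1B at 129 and 32.5 FPKM, TUBB4B at 218 and 61.5 and TUBB at 376 and 132 with DMSO, and since tubulin genes are similar in sequence their reads may be shared between copies.

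The melatonin pair was set beside the DMSO pair for the same 10539 genes. The pairs share no library, but they share the time points and the treatment differs, so the melatonin pair is not a replicate of the DMSO pair. With melatonin 93 genes (0.882%) passed 2-fold, 50 higher (0.474%) and 43 lower (0.408%). The 10539 genes were admitted by their DMSO levels alone. Any gene that reached an FPKM of 1 only with melatonin is thus missing from these counts and from the shares of the melatonin list below. Of the 174 genes higher with DMSO, 162 (93.1%) were also above 0 with melatonin, against 40.5% of all tested genes. Of the 293 lower ones 284 (96.9%) were below 0 with melatonin, where most of all tested genes were below 0 too (median -0.06). No gene passed 2-fold in opposite directions. Past 2-fold in both pairs were 26 higher genes, which are 14.9% of the DMSO list and 52.0% of the melatonin list, and 26 lower genes, 8.87% and 60.5% of the lists. The genes lower with DMSO had a median of -1.21 with DMSO and -0.66 with melatonin, and the higher ones 1.18 and 0.54. These genes were chosen on the DMSO values, which favours larger steps in that pair. Across all tested genes the log2 fold changes of the pairs had a Pearson r of 0.69 and a Spearman rho of 0.68, given as a description over genes, which are not independent.

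By list, glycolysis had medians of -1.29 with DMSO and -0.74 with melatonin, mitosis -0.96 and -0.56, DNA replication -0.97 and -0.37, cholesterol synthesis -0.90 and -0.63, and the mitochondrial genome -1.28 and -0.72. The ATF4 list had 0.57 and -0.19, and the endoplasmic reticulum list 0.30 and 0.02. In the ATF4 list 34 of 43 members were above 0 with DMSO and 10 of 43 with melatonin, against 48.6% and 40.5% of all tested genes. With 1 library for each condition these differences between the pairs were not tested.

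**Figure D5:**
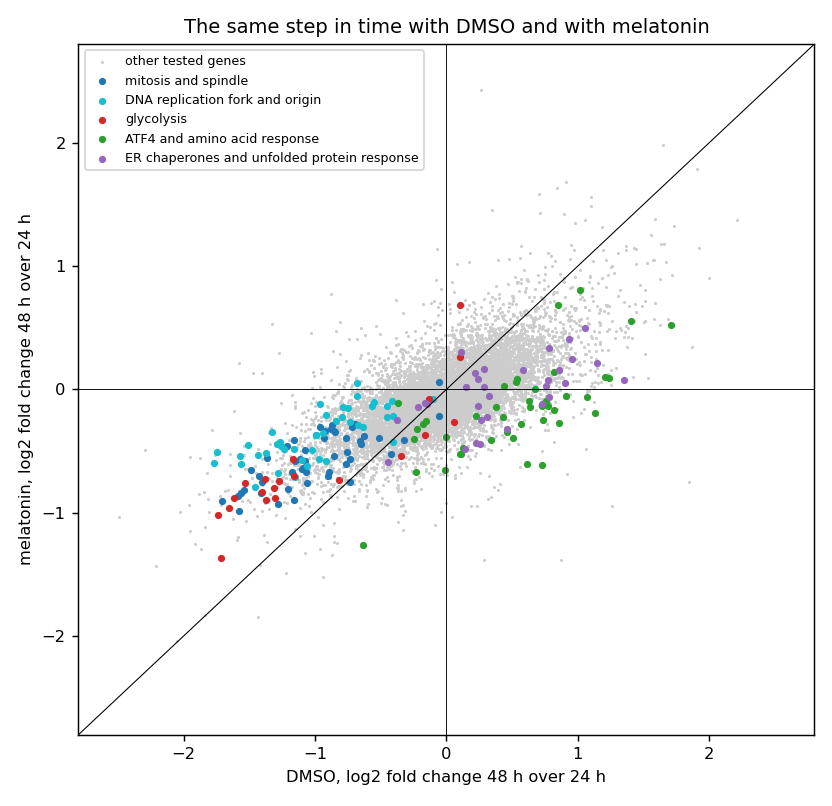
Log2 fold change from 24 h to 48 h of each tested gene with DMSO (x axis) against that with melatonin (y axis), with 5 gene lists in colour and a line of equal change. Across genes r was 0.69, and ATF4 list members lie mostly right of 0 but below it on the y axis, with medians of 0.57 and -0.19.

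The fold changes were also set against gene length and base composition. The median log2 fold change ran from -0.07 in the quartile of shortest genes to 0.03 in that of the longest, and from 0.04 in the quartile of lowest GC content to -0.03 in the highest. The shortest quartile held 77 of the 174 higher and 126 of the 293 lower genes, and the longest 20 and 32. With the 13 mitochondrial genes left out and the other reads as library size, a check chosen after seeing the data, 174 genes were higher and 306 lower.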

How the data were processed

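RNA-seq was analysed for 4 HepG2 libraries, 1 each for DMSO and melatonin at 24 h and 48 h, grouped by the labels. The deposited values are FPKM per Ensembl gene, scaled by the authors to gene length and a library size; the deposited gene length in bp (another column) was used beside them. The study's methods name hg38, MapSplice and Cufflinks, and the submitters' processing notes name TopHat2 2.0.9, Bowtie2 2.0.6, Cufflinks 2.1.1 and Cuffdiff 2.1.1; which made the files is not given in the sources used here.

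Multiplying FPKM by length gave whole reads, after division by a constant of each library, for 100% of values (tolerance 0.01 of a read). These gave exact conditional 95% intervals of ratios, which cover counting error only. The implied library size was 1.19 times larger at 48 h than at 24 h with DMSO, against 1.20 by the median of ratios. The floor of 3 reads is an FPKM of 0.163 for 1 kb in the DMSO library of 24 h. Fold changes used a pseudocount of 1, which understates those of low genes, and a gene was called at a log2 value of at least 1 or at most -1. A count test was not run for lack of replicates. Members of 47 gene lists, 1 of them added after the values were seen (1600 of 1601 symbols matched), were described by counts and medians. Genes named are the 12 highest and 12 lowest with at least 50 reads, the 4 largest changes in each list, and members that define a pathway; the members and lists were chosen with earlier results of these data known. GC content came from GENCODE 44. Promoters are RefSeq, GRCh38.p14. Scripts (Python 3.11.15, pandas 2.3.3, scipy 1.17.1) were tested on simulated data. Some list members are not reported here.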

Additional observations from a re-analysis of the deposited data

Results flagged for a closer look

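Between the DMSO and the melatonin pair, some results had opposite signs for the step from 24 h to 48 h. None of these differences was tested, since each condition had 1 library. The median of all tested genes was itself -0.01 with DMSO and -0.06 with melatonin. List medians of opposite sign were 0.57 with DMSO against -0.19 with melatonin for the ATF4 and amino acid list, 0.35 against -0.10 for Wnt targets, 0.30 against -0.02 for lysosome and autophagy, and 0.26 against -0.05 for immediate early genes. The last 2 of these lists were above the median of all genes in both pairs, so relative to the typical gene their direction was the same. Nearer to 0 were plasma proteins (0.20 and -0.08), NF-kappaB (0.17 and -0.12), interferon and antigen presentation (0.15 and -0.16), complement (0.10 and -0.20), the BCL2 family (0.09 and -0.003), bile acids (0.05 and -0.30), metallothioneins (-0.06 and 0.001) and the IGF system (-0.07 and 0.04). The BCL2 family too was above the median of all genes in both pairs. For some lists the DMSO value relative to all genes changed sign across the processing settings. It ran from -0.08 to 0.20 for interferon and antigen presentation and from -0.005 to 0.44 for NF-kappaB. The range was -0.06 to 0.15 for bile acids, -0.17 to 0.05 for metallothioneins and -0.0003 to 0.12 for the BCL2 family.

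Among the genes named, those below had counting intervals on opposite sides of equal levels in the pairs. SERF1B had a log2 fold change of 1.84 with DMSO and -0.75 with melatonin. Of the ATF4 list, SLC6A9 had 1.13 and -0.19, MTHFD2 1.07 and -0.06, and CARS 0.82 and -0.17. CEBPB, a transcription factor that pairs with ATF4, had 0.86 and -0.27. VEGFA had 0.84 and -0.16, AFP 0.75 and -0.33, and PROS1, the anticoagulant protein S, 0.41 and -0.77. E2F1 went the other way, with -0.84 and 0.47, as did HSPA1B, an inducible heat shock protein whose copy HSPA1A is nearly identical, with -0.39 and 0.36. The steps of MDM2 (-0.15 and 0.08) and SLC16A1 (0.06 and -0.26) were small.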

How the results depend on the processing

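No paired analysis was possible because each condition holds a single library, and for the same reason no library could be left out. With a pseudocount of 0.1, 898 genes passed 2-fold, 357 higher and 541 lower, and at a 1.5-fold threshold 1934 did, 809 higher and 1125 lower. Rescaled to TPM there were 1377, of which 1267 were higher and 110 lower, and with library size as the plain sum of reads 177 were lower; these scalings shift every gene. The remaining settings left the 3 counts within 1.5 times of the main ones. List medians, taken relative to the median of all genes, changed sign in none of the 9 leading lists under any setting. They ranged from -1.17 (pseudocount of 0.1) to -0.93 for DNA replication, from -1.30 to -1.12 (TPM) for glycolysis, which was -1.17 with no minimum FPKM, from -1.09 to -0.92 for mitosis, from -1.005 to -0.87 for cholesterol synthesis and from 0.53 to 0.64 for the ATF4 list. The mitochondrial genome had -1.29 with no minimum FPKM, -1.22 in TPM, -1.24 with the plain sum and -1.16 after correction for GC content and length, and lysosome and autophagy 0.44 at an FPKM of at least 5. The correction and the leaving out of mitochondrial genes were chosen after seeing the data. Of the 24 named genes none changed sign. Depth limits low genes most: at 48 h with DMSO EPO rests on 26 reads and GSTA1 on 25, and a single culture a condition limits every result.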

Other observations

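Outside the protein-coding genes, RNAs that host small nucleolar RNAs in their introns were higher at 48 h, in a set gathered after the values were seen. Of 21 SNHG genes, GAS5 and ZFAS1 with an FPKM of at least 1, 20 were above 0 with DMSO and 18 with melatonin, with medians of 0.67 and 0.43, against 0.23 and 0.19 for 1152 non-coding genes with at least 50 reads. Most of those 1152 genes were above 0 as well, 790 with DMSO and 842 with melatonin. SNHG7 had 6.78 FPKM at 24 h and 31.9 at 48 h with DMSO and 11.4 and 28.9 with melatonin. SNHG8 had 16.1 and 43.8 with DMSO and 21.7 and 51.6 with melatonin, and GAS5, a growth-arrest transcript, 12.6 and 30.7 with DMSO and 16.5 and 32.3 with melatonin. The same libraries had the small upward step of ribosomal protein genes, and C6orf48, a protein-coding entry that also hosts small nucleolar RNAs, went from 62.4 to 163 FPKM with DMSO and from 77.7 to 175 with melatonin.

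MIR34AHG and MIR22HG, host genes of microRNAs, were picked after their values were seen. MIR34AHG, the host of miR-34a, a p53 target, had 2.78 and 9.51 FPKM with DMSO and 1.68 and 3.86 with melatonin. MIR22HG had 0.803 and 6.18 FPKM with DMSO and 0.760 and 1.93 with melatonin. NEAT1, which builds paraspeckles, had 9.89 and 13.5 FPKM with DMSO but 28.5 and 62.8 with melatonin, and MALAT1 was level with DMSO at 21.6 and 20.9. TPI1P1, a processed pseudogene of TPI1, had a log2 fold change of -1.36, and reads of the parent gene can map there.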
